A study of Mus musculus with 6 samples.

Results

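Sorted mouse undifferentiated spermatogonia were examined for 9 genes of the interferon system: *Ifih1*, *Ddx58*, *Dhx58*, *Mavs*, *Irf3*, *Irf7*, *Isg15*, *Ifit1* and *Ifit3*. They are 9 of the 53657 gene names counted. *Ifih1* was chosen from its difference between the genotypes in these same samples, and the other 8 were chosen by function around it to see whether they followed it. Their genotype differences are therefore given as a description, and the counts of calls among them support nothing.

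The samples came from 3 WT and 3 MUT adult mice, 1 library per mouse. The WT mice were *Gfra1-creERT2*; *tdTom fl/-* littermates without the *FR-Hras G12V* allele, and the MUT mice were *Gfra1-creERT2*; *tdTom fl/-*; *FR-Hras G12V fl/-*. Both groups thus carried the Cre and the reporter, both received repeated courses of tamoxifen, and cells positive for tdTomato and bright for the surface protein MCAM were sorted 3 months later. In MUT cells Cre recombination replaces 1 *Hras* allele, at its own locus, with the G12V form, which keeps the signaling protein HRAS active. Some limits of the model apply to every value. The Cre depends on the *Gfra1* promoter, and recombination is mosaic in this model. The recombined share of each library was not analysed here. From variant calling in its MUT RNA-seq samples the paper inferred that most of the sorted cells had recombined. The mice were of a mixed C57BL/6J, 129/Sv and Swiss Black background, and MCAM is also found on somatic cells.

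Cells detect viral RNA in the cytoplasm with helicases of the RIG-I family, which signal through the mitochondrial adaptor MAVS to transcription factors of the IRF family. These factors switch on the interferon genes, and secreted interferon then acts through its receptors and the JAK-STAT pathway to induce a large set of interferon-stimulated genes. Several of the sensors are themselves interferon-stimulated. Undifferentiated spermatogonia include the stem cells that sustain sperm production in the testis.

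The libraries held between 22729292 and 23550433 counts on genes, and 3 counts, taken as the floor, corresponded to 0.127 to 0.132 CPM (counts scaled to the TMM-normalized library size). *Hras* had 56.8 to 65.2 CPM in WT and 61.0 to 69.9 CPM in MUT, a count that does not separate the alleles, and tdTomato had 56.2 to 65.2 CPM and 52.6 to 66.4 CPM. The 12 markers of undifferentiated spermatogonia, among them *Gfra1*, *Zbtb16* and *Ret*, summed to 3481 to 4074 CPM in WT and 3615 to 4095 CPM in MUT. The largest parts of this sum were *Dazl* (837 to 959 CPM) and *Mcam* (559 to 707 CPM), the gene of the sorted protein. For 2 of the 12 the groups did not overlap, with higher levels in MUT. *Lin28a* had 324 to 351 CPM in WT and 383 to 430 CPM in MUT. *Nanos3* had 25.3 to 29.3 CPM in WT and 29.4 to 34.2 CPM in MUT. Whether the share of stem cells was equal was not tested. WT replicate 3 stood apart, with the highest level for 5241 and the lowest for 5307 of 19656 tested genes, and its chi-square per degree of freedom against the other WT samples was 24.472 and 18.223, beside 5.162 between those. Markers of macrophages (10 genes) summed to 760 to 1222 CPM in WT and 657 to 847 CPM in MUT, and those of B and plasma cells (8 genes) to 77.5 to 328 CPM and 27.2 to 90.2 CPM. No gene of the 10 marker lists was at 0 in all 6 samples.

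The promoters of the 9 genes differed in a motif of the interferon response. A RefSeq window of 300 bases, 250 before and 50 after the transcription start (GRCm38.p6), was matched for 8 of them, all but *Dhx58*, and searched on both strands, overlaps allowed, for the letters GAAA, then any 2 bases, then GAAA, which form a core of the element through which interferon-stimulated genes are switched on. The motif was found in 5 of the 8 windows (62.5%), namely those of *Isg15*, *Ifit1*, *Ifit3*, *Ifih1* and *Ddx58*, and these letters were not in the windows of *Mavs*, *Irf3* and *Irf7*. Of all 32851 windows, 3.44% held it. A match describes letters and is not a site of binding. The 3 promoters with several matches are shown for the 160 bases before the start, with the motif in capitals, 5′ to 3′ on the strand of the gene (a match to the other strand reads TTTC, any 2 bases, TTTC).
Isg15, chr4:156200819-156200978, minus strand: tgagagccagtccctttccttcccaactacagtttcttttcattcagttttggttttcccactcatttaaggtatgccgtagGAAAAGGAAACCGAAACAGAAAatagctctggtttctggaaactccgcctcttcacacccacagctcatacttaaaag
Ifit1, chr19:34640729-34640888, plus strand: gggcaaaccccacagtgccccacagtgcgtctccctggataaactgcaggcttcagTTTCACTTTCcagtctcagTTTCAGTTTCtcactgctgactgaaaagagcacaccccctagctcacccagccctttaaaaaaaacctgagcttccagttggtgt
Ifit3, chr19:34583369-34583528, plus strand: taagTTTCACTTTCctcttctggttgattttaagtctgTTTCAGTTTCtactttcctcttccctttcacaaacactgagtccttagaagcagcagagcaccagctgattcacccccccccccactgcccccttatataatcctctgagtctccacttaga

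In *Isg15* the 3 matches overlap each other, starting 78, 72 and 66 bases before the start, whereas *Ifit1* has separate matches at 104 and 85 bases and *Ifit3* at 156 and 122 bases before it. Both sensors carry a single match on the other side of the start, 32 bases after it in *Ifih1* and 2 bases after it in *Ddx58*. These are shown because *Ifih1* is the gene around which the others were chosen, again with the motif in capitals.
Ifih1, chr2:62646206-62646233, minus strand: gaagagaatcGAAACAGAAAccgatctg
Ddx58, chr4:40239804-40239833, minus strand: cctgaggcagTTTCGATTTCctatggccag

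**Figure D1:**
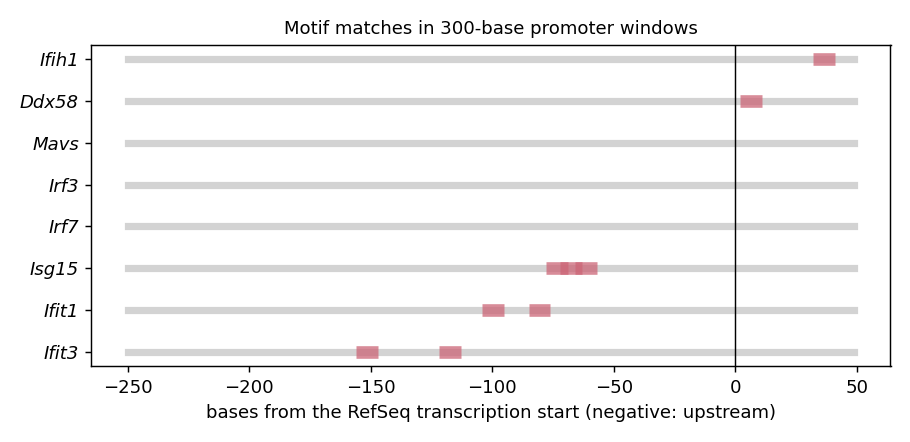
Position of each match to the motif (GAAA, any 2 bases, GAAA, on either strand) in the RefSeq promoter windows of 8 genes, in bases from the transcription start on the horizontal axis, with 1 line per gene. Matches lie before the start in *Isg15*, *Ifit1* and *Ifit3* and after it in *Ifih1* and *Ddx58*.

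Among wider lists chosen by function, the motif was in 34 of 62 windows of interferon-stimulated genes (54.8%) and in 11 of 20 windows of interferon ligands (55%). It was in 12.5% of the windows of sensing and signalling genes and 14.3% of those of receptors and JAK-STAT genes.

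The levels of the 9 genes, compared as CPM per kb of exon over all 6 samples, covered a wide range. *Irf3*, the transcription factor that MAVS signaling activates without need of interferon, was highest with 18.1 per kb in WT and 18.4 per kb in MUT. *Mavs* came next with 12.1 and 12.3 per kb, and the 6 samples of the 2 genes did not overlap on this scale. *Ifih1* (4.0 ± 0.349 per kb in WT, 2.65 ± 0.373 in MUT; SD, n = 3), *Dhx58* (3.39 and 3.05) and *Isg15* (3.62 and 2.65) overlapped each other in level. *Irf7* had 1.99 and 1.97 per kb, and *Ifit3* 1.63 and 1.2. The lowest levels were those of *Ddx58*, with 0.725 and 0.591 per kb, and *Ifit1*, with 0.51 and 0.37. From *Isg15* downward each gene overlapped its neighbour in the order. Within the 19656 tested genes, *Irf3* stood at percentile 81.9 of this level, *Ifih1* at percentile 46.8 and *Ifit1* at percentile 13.2.

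**Figure D2:**
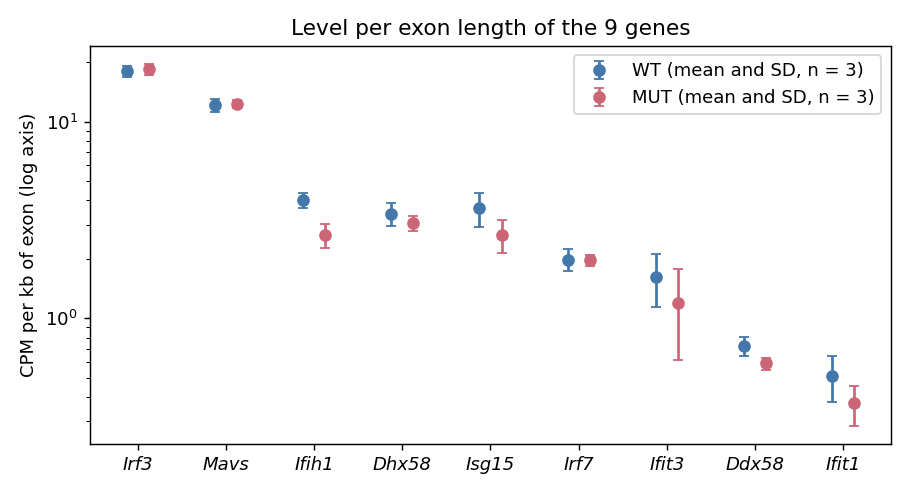
Level of each of the 9 genes in CPM per kb of exon on a log axis, with 1 point at each group mean and a bar for the SD (WT and MUT, n = 3 each). *Irf3* and *Mavs* stand above the other 7 genes in both groups.

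*Ifih1*, which encodes the sensor MDA5 for long double-stranded RNA (chromosome 2, 62595798 to 62646255, minus strand), had 35.0, 33.5 and 29.5 CPM in WT replicates 1 to 3 and 25, 21 and 19.0 CPM in MUT replicates 1 to 3. Every MUT sample was below every WT sample. The means were 32.7 ± 2.85 CPM in WT and 21.7 ± 3.05 CPM in MUT (SD, n = 3), a ratio of 0.663 and a log2 fold change of -0.59 (standard error 0.12, edgeR). The raw counts behind these levels were 445 to 801 per sample.

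*Ddx58*, which encodes RIG-I, the sensor of RNA with a 5′ triphosphate (chromosome 4, 40203773 to 40239828, minus strand), had 4.63, 5.0 and 5.71 CPM in WT and 4.11, 3.90 and 4.49 CPM in MUT. Here too the groups did not overlap, although the highest MUT sample (4.49 CPM) was close to the lowest WT sample (4.63 CPM). The log2 fold change was -0.29 (standard error 0.16). *Dhx58*, which encodes LGP2, a regulator of both other sensors (chromosome 11, 100694884 to 100704271, minus strand), had 9.48, 11.5 and 12.3 CPM in WT and 10.4, 9.02 and 10.5 CPM in MUT. Its groups overlapped, because WT replicate 1 was below 2 of the MUT samples. The log2 fold change was -0.15 (standard error 0.14), but -0.07 without WT replicate 3 and -0.26 without WT replicate 1. Of this gene, 4.31% of the exon bases are shared with the antisense gene *Dhx58os*. Fragments on these bases are ambiguous without strand and were left out of the counts.

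*Mavs* (chromosome 2, 131234063 to 131248025, plus strand) had 42.4, 42.2 and 37.1 CPM in WT and 41.4, 43.0 and 39.0 CPM in MUT. The groups overlapped, and the lowest sample, WT replicate 3, was the one in which 5 other genes of the set were highest. Its log2 fold change of 0.021 was smaller than its standard error of 0.084.

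*Irf3* (chromosome 7, 44997648 to 45002848, plus strand) had 57.9, 63.0 and 65.9 CPM in WT and 67.9, 59.6 and 62.3 CPM in MUT. The groups overlapped, with a log2 fold change of 0.024 (standard error 0.079). *Irf7*, the factor that amplifies the interferon response and is itself induced by interferon (chromosome 7, 141262706 to 141266481, minus strand), had 6.42, 8.25 and 7.82 CPM in WT and 7.87, 7.55 and 6.92 CPM in MUT. All MUT values lay within the WT range, and the log2 fold change was -0.01 (standard error 0.15). *Irf7* lies 68701 bases from *Hras*, so a difference from the genotype and one from the strain of the engineered chromosome cannot be told apart there.

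*Isg15* encodes a ubiquitin-like protein that is attached to other proteins (chromosome 4, 156199424 to 156200818, minus strand). It had 2.14, 2.91 and 3.17 CPM in WT and 2.36, 1.6 and 2.05 CPM in MUT. WT replicate 1 was below MUT replicate 1, so the groups overlapped, and the log2 fold change was -0.45 (standard error 0.24).

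*Ifit1*, which encodes a protein that binds foreign RNA caps (chromosome 19, 34640871 to 34650009, plus strand), had 0.961, 1.45 and 1.65 CPM in WT and 1.22, 0.781 and 0.94 CPM in MUT. The groups overlapped, with MUT replicate 1 above WT replicate 1, and the log2 fold change was -0.46 (standard error 0.3), or -0.30 without WT replicate 3. These values rest on 18 to 39 counts per sample. *Ifit3*, a partner of *Ifit1* (chromosome 19, 34583531 to 34588731, plus strand), had 2.19, 2.56 and 3.8 CPM in WT and 1.18, 1.91 and 3.21 CPM in MUT. The groups overlapped, since MUT replicate 3 was above 2 of the WT samples. Its log2 fold change was -0.44 (standard error 0.37), but -0.18 without WT replicate 3, -0.16 without MUT replicate 1 and -0.88 without MUT replicate 3. Its level is uncertain for another reason, since 51.2% of the 50-base words of its transcript also occur in *Ifit3b* and fragments matching several places were not counted.

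**Figure D3:**
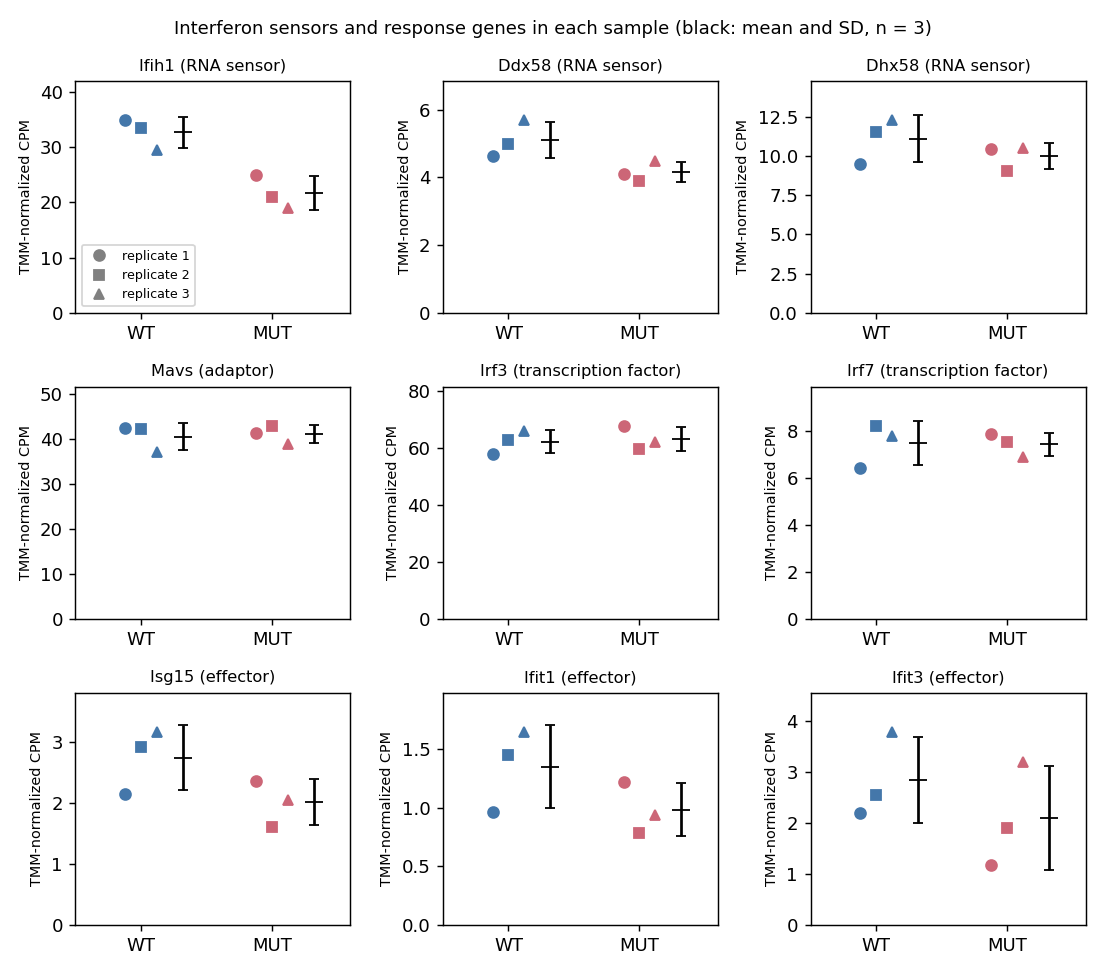
CPM of each of the 9 genes in each of the 6 samples, with 1 panel per gene and a bar at the mean of each group (WT and MUT, n = 3 each). The groups are apart in *Ifih1* (19.0 to 25 CPM in MUT, 29.5 to 35.0 CPM in WT) and, narrowly, in *Ddx58*, and overlap in the other 7.

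The spread among replicates set how far these differences could be read. The coefficient of variation of *Ifih1* was 8.71% in WT and 14.1% in MUT, against 3.98% from counting alone. For *Ifit3* it was 29.7% and 48.9%, against 13.2% from counting, and for *Ifit1* 26.1% and 22.9%, against 19.2%. The ratios of *Isg15*, *Ifit1* and *Ifit3* (0.732, 0.725 and 0.737) were thus near that of *Ifih1*, with standard errors at least as large as 0.24 on the log2 scale. Whether *Ifih1* differed by more than the other 8 was not tested.

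Counted together, 7 of the 9 genes had a lower level in MUT and 2 a higher one, and the median log2 fold change was -0.29 (-0.22 without *Ifih1*), beside 48.2% of genes lower and a median of 0.0066 over all 19656 tested genes. The median was -0.18 without WT replicate 3 and -0.19 without MUT replicate 1, and without *Ifih1* it was -0.12 when WT replicate 3 was left out. All 9 genes passed the filter on low counts. Every MUT sample was below every WT sample for 2 of the 9, where 3.00% of all tested genes had this order, and for none of the 9 was MUT above WT throughout, where 4.69% did. edgeR's quasi-likelihood test at an FDR of 0.1 called 0 of the 9 (0.0102% of all tested genes were called), and 1, *Ifih1*, had an unadjusted p under 0.05, as did 2.78% of all tested genes. DESeq2 also called 0 of the 9 (0.0241% of its genes), with 1 at an unadjusted p under 0.05, beside 388 of the 19656 tested genes. With the replicate number as a block, edgeR called 1 of the 9, *Ifih1* (0.0661% of all tested genes), and so did DESeq2 (0.323% of its genes). Because *Ifih1* was chosen from this contrast, nothing is read from these counts.

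The pairs of samples with the same number did not move alike. In pair 1, 4 of the 9 genes were lower in MUT and the median log2 difference was 0.14, whereas 8 of the 9 were lower in pair 2 (median -0.35) and in pair 3 (median -0.24). Over all tested genes 48.6%, 49.6% and 49.2% were lower in the 3 pairs. *Ifih1* was lower in each pair, by log2 differences of -0.48, -0.67 and -0.63, and so was *Ifit3*, by -0.84, -0.41 and -0.24. *Ddx58* was also lower in each, by -0.17, -0.35 and -0.34. *Isg15* and *Ifit1* were higher in MUT in pair 1 (0.14 and 0.32) and lower in pair 2 (-0.82 and -0.83) and pair 3 (-0.61 and -0.76).

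WT replicate 3 was the highest of the 6 samples for 5 of the 9 genes (*Ddx58*, *Dhx58*, *Isg15*, *Ifit1* and *Ifit3*), and MUT replicate 2 was the lowest for 4. Over all 19656 tested genes WT replicate 3 was the highest for 5241. *Ifih1* differed from these genes in its order, being highest in WT replicate 1. The summed macrophage markers were also highest in WT replicate 3. They had 844, 760 and 1222 CPM in WT replicates 1 to 3 and 657, 788 and 847 CPM in MUT replicates 1 to 3. So was the sum of the 8 markers of meiotic and post-meiotic germ cells. It was 1245, 951 and 1580 CPM in WT and 693, 720 and 1233 CPM in MUT. Not every marker followed its sum: *Cd163* and *Acrv1* were highest in MUT replicate 3, and *Piwil1* was lowest in WT replicate 3. The part of these cells in the levels of the 5 genes was not tested. In such bulk samples fewer cells of a type and less RNA per cell cannot be told apart.

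The profile of *Ifih1* over the 6 samples was compared with those of 10582 other genes of at least 10 CPM by the root mean square distance of their centred log2 CPM. The nearest were *Zic1* (distance 0.0951), *Dmrt2* (0.115) and *Cd109* (0.124). Their means were 63.9 CPM in WT and 44.4 CPM in MUT for *Zic1*, 20.0 and 14.0 CPM for *Dmrt2*, and 21.9 and 14.8 CPM for *Cd109*. Within the set the nearest was *Ddx58* at 0.269, then *Isg15* at 0.282, and the farthest was *Ifit3* at 0.597. These genes, *Ifit1* and *Irf7* were below the cut of 10 CPM. Counting error adds to their distances, which are thus not comparable with those of the 3 nearest genes. The nearest tested genes on either side of *Ifih1* had log2 fold changes of -0.18 (*Dpp4*, standard error 0.32) and -0.069 (*Gca*, standard error 0.11), and none of the 7 genes tested within 1000000 bases had groups that did not overlap, beside 3.00% and 4.69% of all tested genes with MUT below and above.

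The interferon pathway beyond these 9 genes was followed with 4 lists by function. The ligands were practically without counts: 16 of 21 interferon genes had 0 counts in every sample, and the other 5, *Ifnb1*, *Ifnab*, *Ifne*, *Ifng* and *Ifnl2*, had 9 counts in all with no more than 1 in a sample, under the floor of 3 counts. The other 3 lists gave 120 tested genes. edgeR's quasi-likelihood test called 0 of the 120 at an FDR of 0.1 with or without the block, and DESeq2 called 0 without it. With the block DESeq2 called 1, *Ly6e*, an interferon-stimulated gene named after its values were seen (log2 fold change -0.37, 0.323% of all its genes called). In edgeR 9 genes (7.5%, beside 2.78% of all tested genes) had an unadjusted p under 0.05. With the block they were 18 (15.0%, beside 6.60%). In DESeq2 they were 8 of the 120, beside 388 of the 19656 tested genes. The 9 ranged from 3 without MUT replicate 1 and 4 without MUT replicate 2 to 15 without MUT replicate 3. Over all tested genes the counts in these fits were 407 of 20272, 292 of 20260 and 1736 of 20085. Of the 120, 93 (77.5%) were lower in MUT, and the median log2 fold change was -0.14, or -0.086 without WT replicate 3.

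The interferon-stimulated genes, the longest list, were mostly lower in MUT, and edgeR called none of them. Of 75 tested, 63 (84.0%) were lower in MUT, with a median log2 fold change of -0.19. In 12 of them (16%) every MUT sample was below every WT sample, and in none was it above, beside 3.00% and 4.69% of all tested genes. Of the 75, 4 had an unadjusted p under 0.05 in edgeR and 12 with the block, beside 2.78% and 6.60% of all tested genes. Without MUT replicate 3 they were 10, beside 1736 of 20085 genes, and without WT replicate 3 they were 6, beside 729 of 20086. Only 1 was left without MUT replicate 1 or MUT replicate 2, beside 407 of 20272 and 292 of 20260. Without WT replicate 3 the median was -0.13 and 52 of the 75 were lower, and without MUT replicate 3 the median was -0.26. WT replicate 3 was the highest sample for 30 genes, beside 5241 of all 19656 tested genes. The summed markers of macrophages, of B and plasma cells and of meiotic and post-meiotic germ cells were also highest there. The last were at 951 to 1580 CPM in WT and at 693 and 720 CPM in MUT replicates 1 and 2. In these samples 25 and 22 of the 75 genes were lowest, beside 3167 and 2855 of all 19656 tested genes. Of the other marker sums, all but those of undifferentiated spermatogonia and Sertoli cells were also lowest in MUT replicate 1 or 2. Markers of Leydig cells stood at 67.3 CPM in MUT replicate 3 and at 12.9 to 21.1 CPM in the other samples. The summed markers of T and NK cells were 11.0 to 15.3 CPM in WT and 9.75 to 11.0 CPM in MUT. Most of this sum was *Cd4*, with 7.47 to 11.1 CPM in WT and 6.38 to 6.58 CPM in MUT. *Cd3e* overlapped between the groups, and *Trac* was higher in every MUT sample (0.437 to 0.684 CPM, against 0.35 to 0.427 CPM in WT). The part of these cells in the lower levels was not tested.

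Among the interferon-stimulated genes whose groups did not overlap, the largest differences were those of *Mnda* (1.57 ± 0.0661 CPM in WT, 0.923 ± 0.0338 in MUT; log2 fold change -0.76, standard error 0.21), of the helicase gene *Ddx60* (13 ± 1.52 and 8.60 ± 2.46 CPM; -0.59, standard error 0.21) and of *Tgtp1* (0.542 ± 0.116 and 0.361 ± 0.0283 CPM; -0.58, standard error 0.33; SD, n = 3). *Mnda* rests on 21 to 39 counts per sample and *Tgtp1* on 8 to 16. The coefficient of variation of *Mnda*, 4.21% in WT and 3.66% in MUT, was below the 18.6% from counting alone. Its SDs thus understate its uncertainty. *Tgtp1* shares 91.4% of its 50-base words with its near-copies, so its level is uncertain. The interferon-stimulated genes highest per exon length, *Parp12* (44.6 CPM per kb) and *Znfx1* (35.9 CPM per kb), had log2 fold changes of 0.022 and 0.061. For each of these 5 the Benjamini-Hochberg adjusted p of edgeR was 0.998. *Ifitm1*, *Ifitm2* and *Ifitm3*, which lie near *Hras* as *Irf7* does, had log2 fold changes of 0.036, 0.039 and -0.053.

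Among 28 tested genes of nucleic acid sensing and signalling, 18 were lower in MUT and the median log2 fold change was -0.051, ranging from -0.10 to -0.022 as each sample was left out. The groups did not overlap for 3 of them (10.7%), all lower in MUT, beside 3.00% of all tested genes. They were *Tlr3*, a receptor for double-stranded RNA (12 ± 1.34 CPM in WT, 8.12 ± 1.18 in MUT; log2 fold change -0.57, standard error 0.16), *Tlr9*, a receptor for DNA (4.41 ± 0.50 and 2.85 ± 0.518 CPM; -0.63, standard error 0.20), and the kinase gene *Ikbke* (3.06 ± 0.393 and 2.05 ± 0.258 CPM; -0.58, standard error 0.20; SD, n = 3). The genes highest per exon length, the transcription factor gene *Irf1* (59.3 CPM per kb) and *Samhd1* (25.7 CPM per kb), had log2 fold changes of -0.036 and -0.082. *Trex1* was listed at 0, and 100% of its exon bases overlap another gene.

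Among 17 receptor and JAK-STAT genes the median log2 fold change was -0.04, and it was 0.0052 without WT replicate 1. The groups did not overlap for *Ifnar2*, a subunit of the type I interferon receptor (17.1 ± 1.56 CPM in WT, 13.8 ± 0.96 in MUT; log2 fold change -0.31), or for *Ifnlr1*, a subunit of the type III receptor (3.05 ± 0.334 and 4.10 ± 0.557 CPM; 0.43; SD, n = 3), which was higher in MUT. Each is 5.88% of the list, beside 3.00% of all tested genes lower and 4.69% higher. *Socs3* (73.5 CPM per kb) and *Jak1* (55.1 CPM per kb), the highest per exon length, had log2 fold changes of -0.054 and -0.04.

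**Figure D4:**
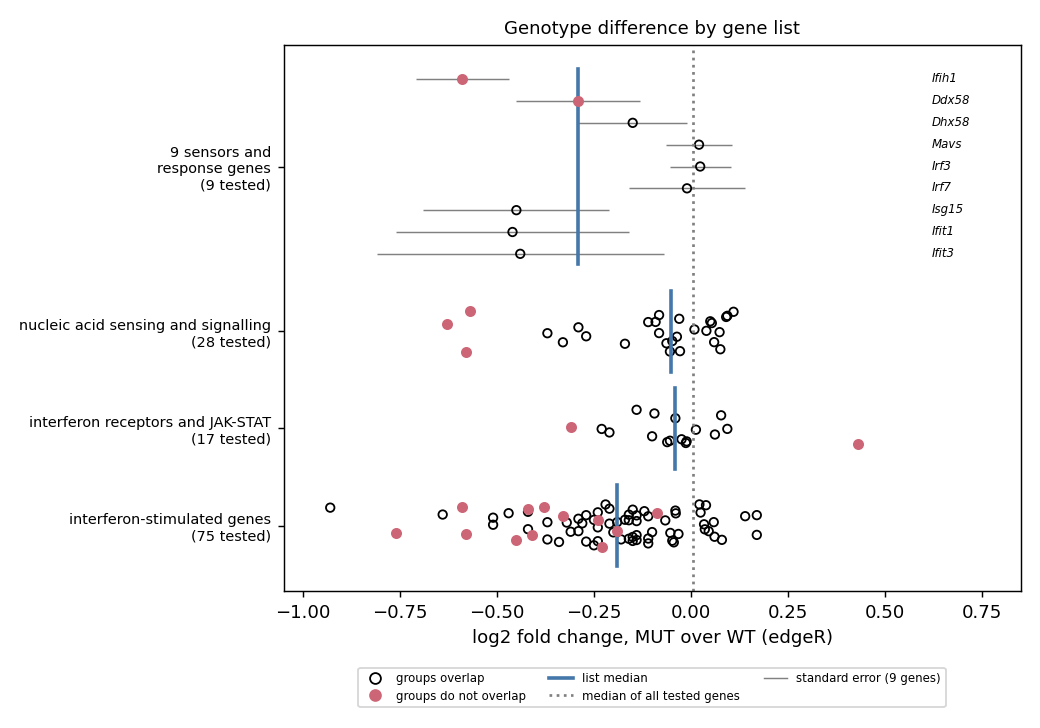
Log2 fold change of MUT over WT (edgeR) for each gene of the set and of 3 pathway lists, with filled points where the 3 MUT and 3 WT samples do not overlap, thick bars at each list's median, the standard error for the 9 genes and a dotted line at the median of all tested genes (0.0066). *Ifih1* is at -0.59, *Mavs*, *Irf3* and *Irf7* are near 0, and the list medians are -0.051, -0.04 and -0.19 from top to bottom.

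**Figure D5:**
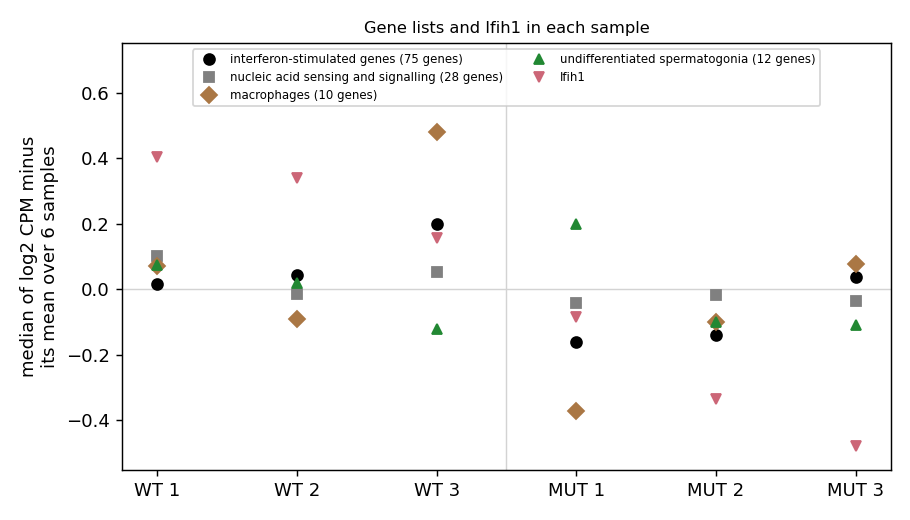
Median over each gene list of the log2 CPM after subtraction of each gene's own mean across the 6 samples, with 1 point per list and sample, and *Ifih1* as a single gene. Interferon-stimulated genes (0.20) and macrophage markers (0.48) are both highest in WT replicate 3, as are the markers of meiotic and post-meiotic cells (0.65) and of B and plasma cells (0.72), which are not drawn, while *Ifih1* is highest in WT replicate 1.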

How the data were processed

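Libraries of polyadenylated RNA (TruSeq Stranded mRNA) from 3 WT and 3 MUT mice were grouped by their labels. The authors deposited unnormalized fragment counts for each gene name, made with featureCounts 1.6.2 on GENCODE vM17 with tdTomato added (GRCm38.p6, STAR per the submitters' processing notes). The counting disregarded strand and left out multi-mapping and ambiguous fragments. Overlaps of exons used the deposited coordinates, and shared 50-base words used GENCODE vM21 transcripts.

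In R 4.3.3, edgeR 4.0.16 (TMM, filterByExpr, 19656 genes) compared MUT with WT by its quasi-likelihood test, with p-values adjusted by Benjamini-Hochberg and called under 0.1. The standard error was the log2 fold change divided by the square root of F. DESeq2 1.42.0, the study's tool, was an alternative, as were its size factors, no filter, a minimum of 10 counts per sample, a stricter threshold of 0.05, a block for the replicate number and each sample left out. The block took the replicate numbers to pair the samples, although the paper does not say which of these mice were littermates. Deviations from group means of same-numbered samples had correlations of 0.304, 0.156 and 0.395 over 10583 genes above 10 CPM. Samples of different numbers were not correlated, so these values cannot show that the numbers are true pairs. With 3 samples against 3 the smallest two-sided permutation p is 0.1.

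The 9 genes and the lists were chosen with earlier results of these data known. Named besides the 9 were interferon genes called in either edgeR fit, per list up to 3 non-overlapping genes with the largest differences and the 2 highest per exon length, *Hras*, tdTomato, the neighbours of *Ifih1*, interferon genes within 1000000 bases of *Hras*, and the 3 genes nearest in profile. Depth was 22729292 to 23550433 counts, and floors cover counting error only. No protein sequences were used here.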

Additional observations from a re-analysis of the deposited data

How the results depend on the processing

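*Ifih1*, *Ddx58*, *Dhx58*, *Isg15*, *Ifit1* and *Ifit3* were lower in MUT under all 12 alternatives. As each sample was left out, *Ifih1* ranged from -0.71 to -0.51 (log2 fold change), *Ddx58* from -0.37 to -0.21, *Dhx58* from -0.26 to -0.07, *Isg15* from -0.61 to -0.33, *Ifit1* from -0.67 to -0.30 and the median of the 9 from -0.37 to -0.18. The direction turned, always by leaving out 1 sample, for *Mavs* (-0.039 to 0.059), *Irf3* (-0.036 to 0.066) and *Irf7* (-0.12 to 0.052). Over all genes edgeR called 2, against 5 without the filter, 0 with at least 10 counts in every sample (479 at an unadjusted p under 0.05), 1 at the stricter adjusted p of 0.05, and 0 to 6 as each sample was left out (0 without MUT replicate 2, with 292 at an unadjusted p under 0.05, and 6 without MUT replicate 3). DESeq2 called 9. With the replicate number as a block edgeR called 13 and DESeq2 55, and the log2 fold change of *Ifih1* was -0.60 in both. The block in DESeq2 called 1 interferon pathway gene, *Ly6e* (named after its values were seen; log2 fold change -0.37), where the other alternatives called 0. The block also called *Ifih1* in both tools and changed no other call on these genes. Without the filter 1056 genes had MUT wholly below WT and 1402 wholly above. The causes were not tested. At this depth *Ifit1*, with 18 to 39 counts per sample, was limited by counting error.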
